A study of Homo sapiens with 8 samples.

Results

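Proteins bound for secretion or for the membranes of the secretory pathway are recognised while they are still being made. The signal recognition particle (SRP) binds the signal sequence as it leaves the ribosome, and the SRP receptor in the membrane of the endoplasmic reticulum (ER) receives the complex. Once the chain has passed into the SEC61 channel, signal peptidase cuts the signal sequence off. The genes described here are 10 that encode parts of this machinery, namely the SRP proteins SRP54, SRP68 and SRP72, the receptor subunits SRPRA and SRPRB, and the signal peptidase subunits SPCS1, SPCS2, SPCS3, SEC11A and SEC11C. The members were taken by name, through their NCBI Gene IDs, and not by their values, though earlier results of these data were known. All 10 have a row among the 18555 genes of the deposited count table, and all 10 passed the filter on low counts, with 14337 genes tested in all.

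Bulk RNA-seq was done on 6 libraries of cells labelled HepG2, a human hepatocellular carcinoma line, in a study of the unfolded protein response factor XBP1s. One group of 3 libraries (siNC) received the Allstar control siRNA and the other group of 3 (siXBP1) an siRNA against XBP1. Both groups were given 30 nM thapsigargin for 3 hours, 2 days after transfection, so every library comes from cells under ER stress and the comparison holds no unstressed arm. Thapsigargin empties the calcium store of the ER. XBP1s, the product of the spliced XBP1 mRNA, is known to switch on many genes of the secretory pathway. Nothing in the labels tells if replicates came from separate cultures, and the spread behind each p-value may therefore be technical. In bulk RNA, fewer cells of a type and less RNA per cell cannot be told apart.

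Each library held 38209972 to 38890070 counts, and TMM factors lay between 0.987 and 1.01. XBP1 mRNA was 518 ± 29.5 CPM (a gene's counts scaled by its library's total) in siNC and 288 ± 11.4 CPM in siXBP1 (SD, n = 3 each). It was the single gene of the 14337 with an edgeR adjusted p under 0.05 (log2 fold change -0.84, SE 0.08, adjusted p = 0.0331). The call was lost when siNC replicate 2 (adjusted p = 0.175) or 3 (0.213), or siXBP1 replicate 1 (0.475) or 2 (0.284), was left out. DNAJB9, a known XBP1s target, had -0.71 (SE 0.15, adjusted p = 0.818), and its groups did not overlap. It passed as lower with DESeq2 (-0.71, adjusted p = 0.0123), in edgeR with the score on the first principal component as a covariate (-0.79, adjusted p = 1.8e-07), and in edgeR without siNC replicate 1 and siXBP1 replicate 3 (-0.95, adjusted p = 2.9e-08). The labelled liver identity was checked with 10 hepatocyte markers, of which 6, ALB among them, had no row matched to their symbol in the counts used here. The other 4 (TF, SERPINA1, AFP and HNF4A) were all under 1 CPM, with HNF4A highest at 0.523 CPM and the other three at 0 in at least 1 library. Their summed level was 0.257 to 0.591 CPM in siNC and 0.619 to 1.04 CPM in siXBP1. The keratins KRT7 and KRT17, markers of other epithelial lines, reached at least 1221 and 2941 CPM in every library, and LUM, a fibroblast marker, at least 121 CPM. The summed level of the 5 other epithelial markers was 4264 to 5685 CPM in siNC and 4170 to 5297 CPM in siXBP1, and that of the 4 fibroblast markers 195 to 212 CPM and 202 to 226 CPM. Leukocyte and endothelial markers summed to at most 43.6 and 9.33 CPM. These sums were mostly CD68 (36.8 to 43.2 CPM) and CDH5 (5.05 to 8.51 CPM). PTPRC, PECAM1 and VWF reached at most 0.623, 0.954 and 0.962 CPM, and CD3E had no matched row. KRT5 and COL1A2 were at or near 0. Of the other epithelial markers, KRT14 had 6.92 to 12 CPM and TP63 a median of 0.543 CPM over the 6 libraries. The summed level of the 5 epithelial markers was therefore mostly KRT7 and KRT17, and does not stand for the whole list. The part of the cells' identity in the results was not tested. The libraries differed mainly along a first principal component with 60.6% of the variance, on which siNC replicate 1 (score 0.641) and siXBP1 replicate 3 (score -0.649) lay at the ends and the other 4 libraries between -0.289 and 0.24.

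No member passed edgeR's test (adjusted p under 0.05), where 0.00697% of all genes did, and none passed with DESeq2 or limma-voom. The estimate was lower in siXBP1 for 8 of the 10 members, against 47.2% of all genes tested. Their median log2 fold change was -0.07, and the median over all genes was 0.01. Single estimates ran from -0.23 for SEC11C to 0.06 for SPCS2, and the adjusted p was 0.9998 for each of the 10. At an unadjusted p under 0.05 in edgeR, 0 members were lower, against 1.7% of all genes. The count of higher members was also 0, against 273 of all 14337 genes. In CPM, all siXBP1 libraries lay below all siNC libraries for 2 members, SRP68 and SEC11C, against 3.74% of all genes tested. All siXBP1 libraries lay above all siNC libraries for 0 members, against 5.01% of all genes tested. Summed over the 10 members, the level was 1183, 1230 and 1231 CPM in siNC and 1123, 1155 and 1203 CPM in siXBP1. The mean of this sum in siXBP1 was 95.5% of that in siNC, and the highest siXBP1 library lay above the lowest siNC library. Counts are not divided by transcript length here, so levels are compared between groups within a gene and not between genes.

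**Figure D1:**
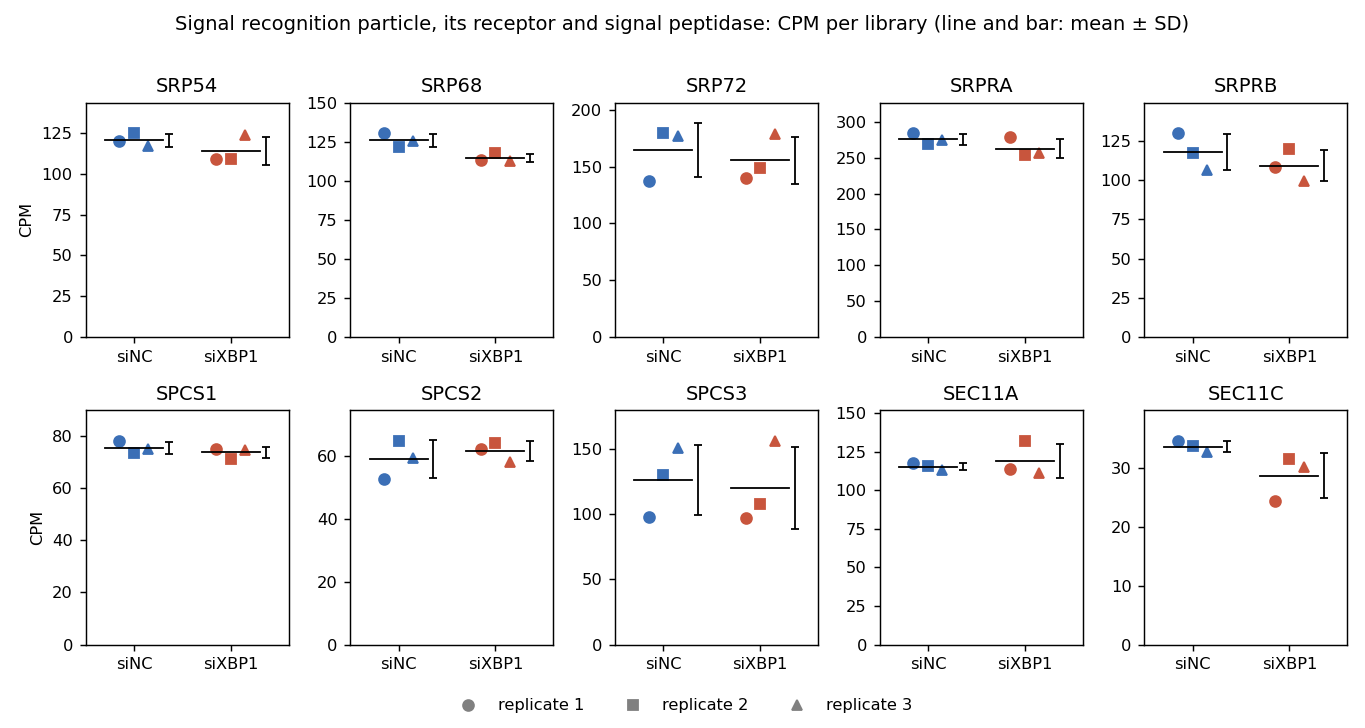
CPM of each of the 10 members in the 3 siNC (blue) and 3 siXBP1 (red) libraries, with marker shapes for replicate numbers, a line at the mean and a bar of 1 SD beside it. The groups stand apart for SRP68 and SEC11C, and overlap for the other 8 members.

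The sequences around the start of SRP68 and SEC11C are shown because these are the members whose groups do not overlap. Those of SRPRB and SPCS2 are shown because, with SEC11C, they hold the letters CCACGT, a core found in known binding sites of XBP1s. Each window runs from 250 bases before to 50 bases after a RefSeq transcript start (GRCh38.p14), on the gene's strand, 5′ to 3′, with CCACGT on either strand in capitals. SRP68 (chr17:76072468-76072767, minus strand), SEC11C (chr18:59139634-59139933, plus strand), SRPRB (chr3:133805565-133805864, plus strand) and SPCS2 (chr11:74949016-74949315, plus strand) read as follows.
SRP68: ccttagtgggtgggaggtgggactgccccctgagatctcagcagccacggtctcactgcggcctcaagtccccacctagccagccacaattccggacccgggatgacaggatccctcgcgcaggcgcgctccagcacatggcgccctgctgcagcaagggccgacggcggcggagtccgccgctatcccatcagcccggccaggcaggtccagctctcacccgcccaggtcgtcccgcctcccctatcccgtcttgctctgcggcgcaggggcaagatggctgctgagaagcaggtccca
SEC11C: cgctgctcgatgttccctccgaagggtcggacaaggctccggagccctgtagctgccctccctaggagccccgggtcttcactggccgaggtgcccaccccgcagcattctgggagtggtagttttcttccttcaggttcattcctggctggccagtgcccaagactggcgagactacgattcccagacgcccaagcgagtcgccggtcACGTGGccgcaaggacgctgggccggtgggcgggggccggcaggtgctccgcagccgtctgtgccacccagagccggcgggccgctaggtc
SRPRB: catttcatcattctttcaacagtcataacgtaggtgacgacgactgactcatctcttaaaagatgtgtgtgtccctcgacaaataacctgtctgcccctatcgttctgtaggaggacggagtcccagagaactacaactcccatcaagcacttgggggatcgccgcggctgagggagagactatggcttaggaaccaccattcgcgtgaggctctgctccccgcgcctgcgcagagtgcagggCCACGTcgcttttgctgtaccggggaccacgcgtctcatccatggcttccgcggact
SPCS2: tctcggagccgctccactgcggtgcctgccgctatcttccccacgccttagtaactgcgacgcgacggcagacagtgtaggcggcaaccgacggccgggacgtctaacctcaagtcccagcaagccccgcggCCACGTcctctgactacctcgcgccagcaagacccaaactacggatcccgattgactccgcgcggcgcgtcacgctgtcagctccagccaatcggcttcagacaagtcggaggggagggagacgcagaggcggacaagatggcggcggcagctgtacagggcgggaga

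RefSeq windows were matched for 8 of the 10 members, all but SRPRA and SPCS1, and for SRP68 the more upstream of its starts was used. CCACGT was searched on both strands and is in 3 of these 8 windows and in 9.72% of 35116 windows of 300 bases. In SEC11C it lies on the reverse strand at -41 to -36, in SRPRB on the forward strand at -7 to -2, and in SPCS2 on the forward strand at -118 to -113 from the start. The estimates of these 3 genes did not share a sign, with -0.23 for SEC11C, -0.11 for SRPRB and 0.06 for SPCS2. The longer element TGACGTGG, whose reverse strand contains CCACGT, was in 0 of the 8 windows and in 0.729% of all. The ER stress element, CCAAT and CCACG set 9 bases apart, was in 0 of the 8 and in 0.0769% of all. The letters TGACGTCA were also in 0 of the 8, and in 1.85% of all windows. CCAAT on either strand was in 3 of the 8 (SRP54, SPCS2 and SPCS3) and in 34.6% of all. A match is one of letters and shows no binding, and the window of SRPRB lies inside the span of that gene. Each member was counted by a single window, while the share over all windows can hold several starts of a gene.

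The 3 SRP proteins had lower estimates in siXBP1, between -0.14 and -0.08 on the log2 scale, and none passed. SRP54 (gene ID 6729, chromosome 14, 34982992 to 35029567) encodes the GTPase that holds the signal sequence. It had 120, 125 and 117 CPM in siNC and 109, 109 and 124 CPM in siXBP1. The replicate 3 library of siXBP1 thus lay within the siNC range, and the other siXBP1 libraries below it. The log2 fold change was -0.08 (SE 0.09, 95% confidence interval -0.29 to 0.13). It went to -0.15 without siXBP1 replicate 3 and to -0.05 without siXBP1 replicate 1.

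SRP68 (gene ID 6730, chromosome 17, 76038785 to 76072517) encodes a protein that binds the RNA of the particle as a heterodimer with SRP72. Its levels were 131, 122 and 126 CPM in siNC and 114, 118 and 113 CPM in siXBP1. The highest siXBP1 library stood below the lowest siNC library, and its mean in siXBP1 was 90.9% of that in siNC. The spread within groups was small, with coefficients of variation of 3.35% and 2.39%. The log2 fold change was -0.14 (SE 0.09, 95% confidence interval -0.33 to 0.06, unadjusted p = 0.155). It stayed between -0.17 and -0.11 with any 1 library left out.

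SRP72 (gene ID 6731, chromosome 4, 56467617 to 56503681) varied far more between replicates than its partner SRP68. It had 138, 179 and 177 CPM in siNC and 140, 148 and 179 CPM in siXBP1. In each group 1 library stood apart from the other pair, low in siNC (replicate 1) and high in siXBP1 (replicate 3). These are the libraries at the ends of the first component. The log2 fold change was -0.08 (SE 0.13, 95% confidence interval -0.38 to 0.22). The log2 ratio of SRP68 to SRP72 counts ran from -0.55 to -0.07 within siNC alone. In siXBP1 it ran from -0.66 to -0.30, and the groups overlapped.

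The SRP receptor had lower means in siXBP1 for both subunits, with overlapping groups. SRPRA (gene ID 6734, chromosome 11, 126235930 to 126268895), the GTPase that pairs with SRP54, had 284, 268 and 274 CPM in siNC. The siXBP1 libraries had 279, 253 and 256 CPM, of which replicate 1 reached into the siNC range. Its log2 fold change was -0.07 (SE 0.08, 95% confidence interval -0.25 to 0.12), and it was -0.11 without siXBP1 replicate 1 and -0.03 without both end libraries of the first component. SRPRB (gene ID 58477, chromosome 3, 133784023 to 133828574), which anchors SRPRA in the membrane, had 130, 117 and 107 CPM in siNC and 109, 120 and 99.5 CPM in siXBP1. Its log2 fold change was -0.11 (SE 0.11, 95% confidence interval -0.36 to 0.15). The estimate for SRPRB was 0.04 (SE 0.09) without those end libraries, so its sign rested on them. Within each group SRPRB was lowest where SPCS3 was highest, in the replicate 3 libraries. The log2 ratio of SRPRB to SRPRA counts had a mean of -1.23 ± 0.12 in siNC and -1.27 ± 0.163 in siXBP1 (SD, n = 3 each), a difference smaller than the spread within either group.

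**Figure D2:**
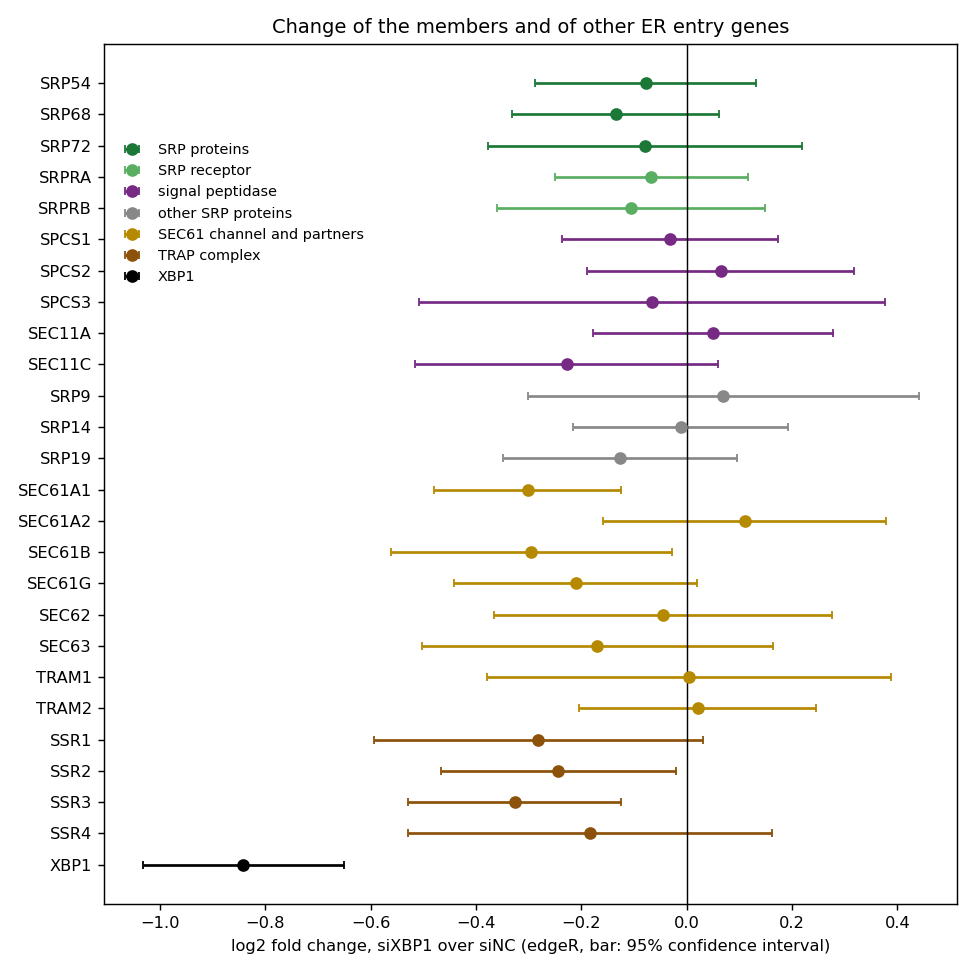
Log2 fold change of siXBP1 over siNC (x axis) with 95% confidence intervals for the 10 members, the other SRP proteins, the SEC61 and TRAP genes and XBP1, from edgeR's fit to all 6 libraries. All 10 members' intervals include 0, and XBP1 lies at -0.84.

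Of the 5 signal peptidase subunits, 3 had lower and 2 higher estimates, and none passed. SPCS1, SPCS2 and SPCS3 are accessory subunits, and SEC11A and SEC11C are alternative catalytic subunits. SPCS1 (gene ID 28972, chromosome 3, 52706106 to 52711148) had the estimate nearest 0 of the 10 members, with 78.2, 73.5 and 75 CPM in siNC and 75.3, 71.2 and 74.9 CPM in siXBP1. Its log2 fold change of -0.03 had a 95% confidence interval of -0.24 to 0.17 (SE 0.09). The siXBP1 libraries lay within or just below the siNC range, and the estimate stayed between -0.06 and -0.01 with any 1 library left out.

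SPCS2 (gene ID 9789, chromosome 11, 74949266 to 74979033) had 52.6, 64.7 and 59.4 CPM in siNC and 62.3, 64.2 and 58 CPM in siXBP1. The lowest value was that of siNC replicate 1, and without this library the log2 fold change went from 0.06 (SE 0.11) to -0.02. The table also holds SPCS2P4 (chromosome 1, 28095035 to 28096442), a pseudogene of SPCS2, which was looked at after the values of SPCS2 were seen. Counting may split reads between the copies, so the level of SPCS2 is uncertain. SPCS2P4 was highest in the library where SPCS2 was lowest, at 23.7 CPM in siNC replicate 1 against 8.59 to 11.6 CPM in the other 5. Added together, gene and pseudogene had 76.3, 73.3 and 71 CPM in siNC and 73.2, 74.4 and 68 CPM in siXBP1. The sum was 73.5 ± 2.65 CPM in siNC and 71.9 ± 3.39 CPM in siXBP1 (SD, n = 3 each), a mean slightly lower in siXBP1, where SPCS2 alone had a mean slightly higher.

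SPCS3 (gene ID 60559, chromosome 4, 176319966 to 176332245), an accessory subunit that signal peptidase needs for its activity, had the widest spread of the 10 members. Its levels were 97.6, 131 and 151 CPM in siNC and 97.3, 108 and 156 CPM in siXBP1. Coefficients of variation were 21.2% in siNC and 26.1% in siXBP1, where counting error at the lowest count, taking each count as a separate fragment, is 1.63%. Both groups covered nearly the same range, and the log2 fold change of -0.07 had a 95% confidence interval of -0.51 to 0.38 (SE 0.20). The estimate was above 0 without siNC replicate 3 (0.07) or siXBP1 replicate 1 (0.07).

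SEC11A (gene ID 23478, chromosome 15, 84669544 to 84716139) had 118, 116 and 113 CPM in siNC and 114, 132 and 112 CPM in siXBP1. A single library, siXBP1 replicate 2, was above the rest, and without it the log2 fold change went from 0.05 (SE 0.10) to -0.04. SEC11C (gene ID 90701, chromosome 18, 59139884 to 59158832), its paralogue, had the lowest estimate of the 10. It had 34.5, 33.6 and 32.6 CPM in siNC and 24.3, 31.5 and 30.1 CPM in siXBP1, so the groups did not overlap. Its mean in siXBP1 was 85.2% of that in siNC, and the log2 fold change was -0.23 (SE 0.13, 95% confidence interval -0.52 to 0.06, unadjusted p = 0.108). Replicate 1 of siXBP1 stood below the other siXBP1 libraries, and without it the estimate was -0.12. The coefficient of variation was 2.9% in siNC and 13.4% in siXBP1. SEC11C had the fewest counts of the members, 934 to 1343 per library, and counting error at the lowest, on the same footing, is 3.27%.

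The balance between the catalytic subunits was compared within each library as the log2 ratio of SEC11C to SEC11A counts, which needs no normalization between libraries. It was -1.77, -1.78 and -1.79 in siNC and -2.23, -2.07 and -1.89 in siXBP1. All 3 siXBP1 libraries lay below the siNC libraries, and the means differed by -0.28. The SD was 0.013 in siNC and 0.171 in siXBP1. In siXBP1 replicate 1 it was SEC11C that was low, and in siXBP1 replicate 2 it was SEC11A that was high. This ratio was chosen with the values of both genes known and carries no test. Other such ratios between members were computed, and the groups overlapped in each of them. They were SRPRB to SRPRA, SRP68 to SRP72, SRP54 to SRP72, SPCS3 to SPCS1 and SPCS3 to SPCS2.

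SRP72 and SPCS3 followed the first component most closely. Both were at their lowest in siNC replicate 1, siXBP1 replicate 1 and siXBP1 replicate 2, the libraries with positive scores. Both were at their highest in siXBP1 replicate 3 and in siNC replicates 2 and 3, the libraries with negative scores. With the score on that component as a covariate, the log2 fold changes were -0.15 for SRP72 (SE 0.06, edgeR adjusted p = 0.301) and -0.19 for SPCS3 (SE 0.07, adjusted p = 0.271). In that fit 0 members passed in either direction, and SEC11C had -0.24 (SE 0.10, adjusted p = 0.314). Of all 14337 genes, 176 passed, 71 as lower (0.495%) and 105 as higher. The score was computed from these same libraries, so the SEs of that fit may be too small.

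**Figure D3:**
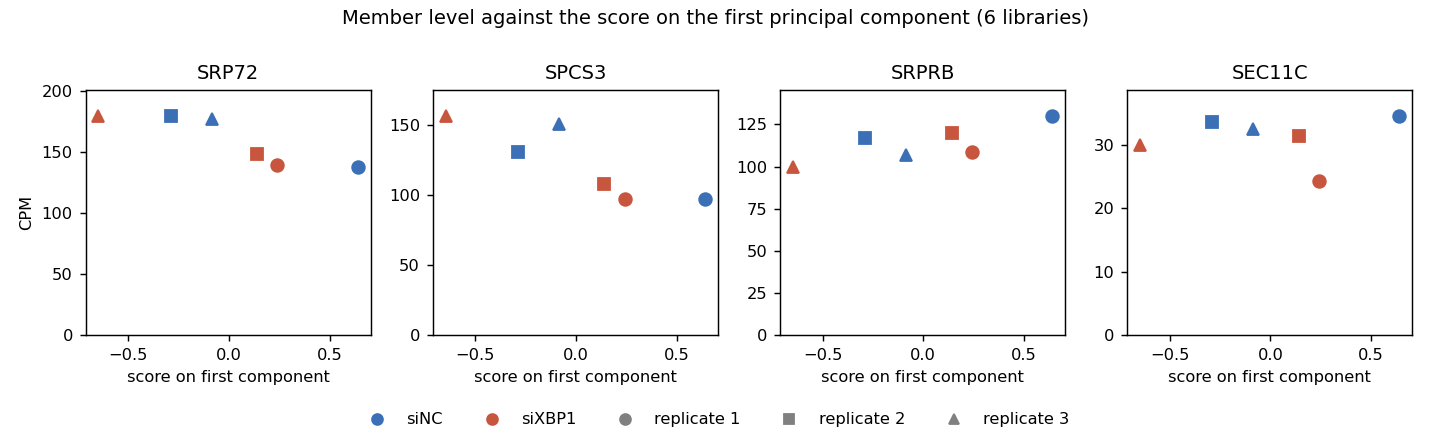
CPM (y axis) of SRP72, SPCS3, SRPRB and SEC11C against each library's score on the first principal component (x axis, no unit), with groups by colour and replicates by shape. SRP72 and SPCS3 are lower at positive scores in both groups, and SEC11C has its lowest value, 24.3 CPM, in siXBP1 replicate 1.

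Without both end libraries, which leaves 2 libraries a group, SRP72 and SPCS3 passed as lower in siXBP1. SRP72 had 179 and 177 CPM in the remaining siNC libraries and 140 and 148 CPM in the siXBP1 ones, a log2 fold change of -0.30 (SE 0.09, edgeR adjusted p = 0.0337). SPCS3 had 131 and 151 CPM against 97.3 and 108 CPM, a log2 fold change of -0.45 (SE 0.09, adjusted p = 0.00253). In that fit 3.42% of all genes passed as lower, 493 of 14416. The 4 remaining libraries still differ by group along the component, with scores of -0.289 and -0.0846 in siNC and 0.24 and 0.141 in siXBP1. Component and group therefore cannot be told apart in them. Leaving out a single library gave no member call. SRP72 had -0.20 both without siNC replicate 1 and without siXBP1 replicate 3, and SPCS3 had -0.22 and -0.31. Without siXBP1 replicate 1, SRP72 was at -0.00.

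**Figure D4:**
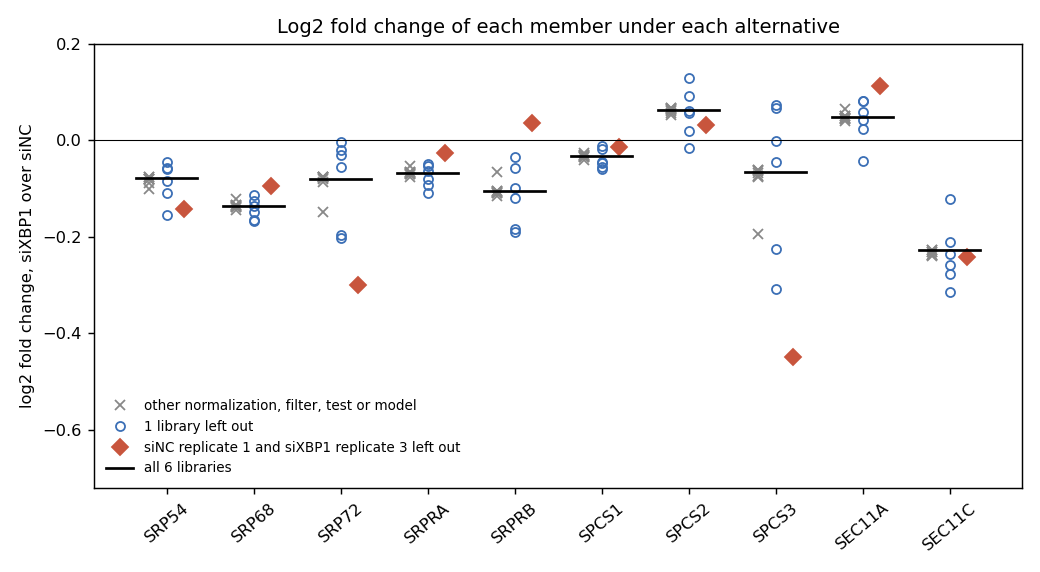
Log2 fold change of siXBP1 over siNC (y axis) for each member with all 6 libraries (line), under other normalizations, filters, tests or models (crosses), with 1 library left out (circles), and without siNC replicate 1 and siXBP1 replicate 3 (diamonds). SRP68, SRP54, SRP72, SRPRA, SPCS1 and SEC11C lie below 0 under all 15 alternatives, and SPCS3 spreads from -0.45 to 0.07.

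Other genes of protein entry into the ER and related lists were compared as background, chosen with earlier results of these data known. The related lists include signal peptide peptidases and 4 mitochondrial presequence peptidases, and all are in the counts that follow. Of 43 genes, 41 were tested (not BAG6, with low counts, or SPPL2C, with no row matched to its symbol). Of these, 24 had lower and 17 higher estimates, the median log2 fold change was -0.01, and none passed. The 3 remaining SRP proteins had 2 lower estimates and a median of -0.01, with -0.13 for SRP19 (SE 0.10) and 0.07 for SRP9 (SE 0.17). SEC61 channel genes and partners had 5 of 8 estimates lower and a median of -0.11. SEC61A1, which forms the channel's pore, had -0.30 (SE 0.08, unadjusted p = 0.00363), and SEC61B had -0.30 (SE 0.12). All 4 genes of the TRAP complex, which sits beside the channel, were lower, with a median of -0.26, among them SSR3 (-0.33, SE 0.09, unadjusted p = 0.005) and SSR1 (-0.28, SE 0.14). With the component as a covariate SEC61A1 (adjusted p = 0.00506), SSR1 (0.000531) and SSR3 (0.00154) passed as lower. The count of members was 0, where 0.495% of all genes tested passed as lower in that fit. Without both end libraries, SSR1 (-0.53, adjusted p = 8.8e-05) and SSR3 (-0.40, 0.00373) passed, as did the members SRP72 and SPCS3, and SEC61A1 did not (-0.24, 0.0789). Of all genes, 3.42% passed as lower there. Whether the members differ from the SEC61 and TRAP genes in their change was not tested.

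Estimates for genes of other entry routes lay on both sides of 0. The nascent chain complex, which binds chains at the ribosome, had 0.01 for both BTF3 and NACA (SE 0.09 and 0.10). Tail-anchored protein insertion had 4 of 6 estimates lower and a median of -0.01, with 0.12 for CAMLG (SE 0.14) and -0.09 for SGTA (SE 0.12). The ER membrane protein complex had 5 of 10 lower and a median of -0.00, with -0.31 for EMC9 (SE 0.21) and -0.16 for EMC2 (SE 0.17). The signal peptide peptidase family had 2 of 4 lower, with -0.18 for SPPL2B (SE 0.18) and 0.17 for SPPL2A (SE 0.12). Peptidases that cut presequences in mitochondria had 2 of 4 lower, with 0.32 for IMMP2L (SE 0.17) and -0.05 for PMPCB (SE 0.09). Several of these estimates depended on a single library or on both end libraries. EMC9 was at -0.08 without siNC replicate 1 and at 0.06 without both end libraries, and EMC2 at -0.01 without siNC replicate 2. Without both end libraries SGTA was at 0.05 and SPPL2B at 0.04, and SRP9 of the SRP proteins at -0.23. BTF3 and NACA were below 0 without siXBP1 replicate 2 (-0.05 and -0.08), and NACA also with upper-quartile factors (-0.00).

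The genes whose pattern was most like the members' mean were HSP90B1 (Pearson r = 0.989), PAIP2 (0.989) and SH3BP5-AS1 (0.978). The measure was the correlation of centred log2 CPM with the members' mean over the 6 libraries. These are the highest of 10735 genes whose mean reached 5 CPM, given as a description. The members themselves did not share a pattern, with pairwise r from 0.954 (SRP72 and SPCS3) to -0.864 (SPCS1 and SPCS2). HSP90B1 encodes an ER chaperone and had a log2 fold change of -0.08 (SE 0.08). PAIP2 and SH3BP5-AS1 had -0.06 (SE 0.09) and -0.36 (SE 0.20), and none of the 3 passed.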

How the data were processed

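Groups and replicate numbers came from the sample titles. The authors deposited raw read counts as whole numbers for each gene. STAR 2.5.2a, featureCounts 1.5.0 (Subread) and the hg38 build are listed in the submitters' processing notes. The kit was stranded per the labels' protocols. For the counting, neither strand setting nor annotation is given in the sources used here. Where spans overlap (SPCS1 with NEK4, SRPRA with FAM118B, SRPRB with RAB6B and TF, SRP68 with GALR2, SPCS3 with SPCS3-AS1), reads may be shared. RefSeq (GRCh38.p14) named 18526 of 18555 rows. The 2 ChIP-seq samples were not analysed here.

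Genes passing filterByExpr were fitted with TMM factors by edgeR 4.0.16 (quasi-likelihood, group only, two-sided) in R 4.3.3, with Benjamini-Hochberg adjustment over all genes and a threshold of 0.05. SEs are the log2 fold change divided by the square root of F, and intervals use its total degrees of freedom (9.63). CPM use the library total, without TMM factors. Principal components used log2(CPM + 0.5) of the 11528 genes whose mean count reached 100. Alternatives used other factors, no filter, DESeq2 1.42.0, limma-voom (limma 3.58.1), a replicate block, the first component and left-out libraries. The procedure was also run on simulated counts with no shared component and with changes larger than the members' estimates. That run therefore does not show how small changes fare in these data.

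The members, gene lists and alternatives were chosen with earlier results of these data known. Genes were named by rule: XBP1, DNAJB9, every member and the 3 genes most like the members' mean in pattern. From each other list, the 2 tested genes of the largest change whose mean reached 5 CPM were named. Even numbers were 75.8% to 80.5% of the low counts, so fragments may be fewer than counts, and counting errors given are lower limits that cover counting only. Replicates of a group differed by more than sampling noise in every pair (chi-square per degree of freedom of at least 9.37).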

Additional observations from a re-analysis of the deposited data

How the results depend on the processing

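The count of members with a lower estimate was 8 of 10 with all libraries and with each other normalization, filter, test or model, 7 to 9 with 1 library left out, and 7 without both end libraries of the first component. No member passed in these fits, except SRP72 and SPCS3 without both end libraries (2 members). Over all genes, where 1 passed, the count was 0 with upper-quartile factors, 16 with DESeq2, 176 with the first component as a covariate, 702 without both end libraries and 0 to 1 with 1 library left out. The cause of these differences was not tested. With the replicate block the count was 1, with 0 members. Same-numbered libraries deviated together for numbers 1 and 3 (r = 0.614 and 0.45) but not for 2 (-0.38). The highest value was that of siNC replicate 2 with siXBP1 replicate 3 (0.665). Whether the numbers pair the libraries cannot be told from these mixed values. The members' median log2 fold change stayed below 0 in all fits, from -0.10 to -0.04. The lower ends of the members' confidence intervals with all 6 libraries ran from -0.52 for SEC11C to -0.18 for SEC11A. Decreases within a member's interval may therefore have gone undetected. The spread between replicates exceeded the counting error. A change beyond that spread was not always called either, after adjustment over all genes. DNAJB9, whose groups did not overlap, had a log2 fold change of -0.71 and an edgeR adjusted p of 0.818 with all 6 libraries.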
